A study of Mus musculus with 6 samples.

Results

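*Prap1*, *Spaca7*, *Slc10a2*, *AA388235* and *4922501L14Rik* are 5 genes of no large family whose RNA was much lower in the uterus of *Foxo1d/d* than of control mice, from 18.5% of the control level in *4922501L14Rik* to no count in *Slc10a2*. They were chosen by their ratio in these data, since the authors' mean count in *Foxo1d/d* uteri, scaled by the column totals, lay under about 0.25 of that in *Foxo1f/f* uteri. They are 5 of the 23420 genes in the table. The ratio selected the genes, so it is given here as a description without a test, and nothing is supported with it.

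Uteri were collected at pseudopregnancy day (PPD) 4.5, a stage that follows mating with a vasectomized male and holds no embryo. By their labels, all females were C57BL/6J and 8 weeks old. Control females were *Foxo1f/f*. *Foxo1d/d* females were *PgrCre/+ Foxo1f/f*, so both genotypes carried the floxed *Foxo1* alleles and only the *Foxo1d/d* females carried Cre. The Cre is expressed from the *Pgr* locus and deletes *Foxo1* wherever the progesterone receptor (PGR) is made, in epithelium, stroma and muscle of the uterus and also in the ovary and pituitary. Poly(A) RNA was sequenced from 3 libraries per genotype, with the RNA of 2 mice pooled in each, to learn how the uterine transcriptome differs without FOXO1. The mean depth on genes was 26125014 counts per control library and 27257963 per *Foxo1d/d* library. The values are the authors' means per genotype, and library-level counts were not analysed here, so no value carries an SD. The 95% intervals were computed from counts summed over the 3 libraries of a genotype and cover counting error only, not the difference between pools.

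FOXO1 is a forkhead transcription factor that moves between cytoplasm and nucleus with insulin and growth factor signalling and binds DNA at a short core sequence. In the uterus it is known in the epithelium during the receptive window. It works beside PGR in human stromal cells decidualized in culture, while the paper reports it mainly in the cytoplasm of mouse decidual cells. The 5 genes have little in common by known function. *Prap1* encodes a secreted, proline-rich acidic protein of the uterine epithelium in pregnancy and of the gut epithelium, where it binds triglycerides. *Slc10a2* encodes the apical sodium-dependent bile acid transporter, known for bile acid uptake in the ileum. *Spaca7* encodes a protein of the sperm acrosome. *4922501L14Rik* is an older name of *Erich3*, which encodes a glutamate-rich protein linked to cilia. *AA388235* is a non-coding RNA without a known role.

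*Foxo1* itself had an authors' mean count of 3941 in control uteri and 1456 in *Foxo1d/d* uteri. Its scaled level in *Foxo1d/d* was 35.4% of control (counting interval 34.2% to 36.7%), a log2 ratio of -1.50. The deletion removes 1 coding exon, and the counts cover the whole gene, so reads from the other exons of a deleted allele could still be counted. The paper also reports FOXO1 staining in the uterine blood vessels of pregnant *Foxo1d/d* females. The share of either in the remaining counts was not tested.

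The RefSeq promoter table (GRCm38.p6) held a start site for each of the 5 genes, and the 250 bases before it were searched on both strands for FOXO-type letters. The windows of 3 genes are shown, that of *Prap1* as the gene with the largest drop in counts, that of *Slc10a2* as the gene without a count in *Foxo1d/d*, and that of *AA388235* as the 1 window with the forkhead core GTAAACA, which is in capitals. They lie at chr7:140093146-140093395 on the + strand, chr8:5105288-5105537 on the - strand and chr17:33981242-33981491 on the + strand, each written 5′ to 3′ along the gene's strand.
Prap1: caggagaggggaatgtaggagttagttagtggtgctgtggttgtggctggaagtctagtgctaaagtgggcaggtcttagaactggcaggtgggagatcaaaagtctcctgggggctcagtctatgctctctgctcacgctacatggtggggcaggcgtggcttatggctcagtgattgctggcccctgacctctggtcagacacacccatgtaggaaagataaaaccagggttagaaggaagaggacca
Slc10a2: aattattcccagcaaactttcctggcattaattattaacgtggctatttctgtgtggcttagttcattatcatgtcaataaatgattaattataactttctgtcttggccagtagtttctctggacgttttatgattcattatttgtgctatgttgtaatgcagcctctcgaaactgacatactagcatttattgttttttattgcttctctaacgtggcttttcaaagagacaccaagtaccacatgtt
AA388235: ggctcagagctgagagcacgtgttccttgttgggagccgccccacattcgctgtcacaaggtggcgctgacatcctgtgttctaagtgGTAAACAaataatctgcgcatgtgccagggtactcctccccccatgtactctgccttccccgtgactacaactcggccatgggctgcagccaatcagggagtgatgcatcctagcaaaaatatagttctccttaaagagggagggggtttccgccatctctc

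GTAAACA, or its reverse TGTTTAC, was present in 3.16% of all 32817 promoter windows of this length and in 1 of the 5. In *AA388235* it ran from base -162 to base -156, where -1 is the base before the start site. The shorter core TAAACA (reverse TGTTTA), which lies inside GTAAACA, was held by 12.0% of all windows and by no further window of the 5. The letters CAAAACA (reverse TGTTTTG), part of an insulin response sequence, were held by 5.56% of all windows and by none of the 5. TATAAA (reverse TTTATA), the core of the TATA box, was held by 12.4% of all windows and was found, in the reverse orientation, in *Spaca7* from base -242 and in *4922501L14Rik* from base -134. These matches are letters in a reference sequence, and binding was not measured. The base composition of the windows differed. GC made up 34.4% of the *Slc10a2* window, more than in 4.26% of all windows, 44.0% in *4922501L14Rik*, 49.6% in *Spaca7*, 53.6% in *Prap1* and 54.4% in *AA388235*, beside a median of 52.4% over all windows. *Spaca7* held 1 CpG, *Prap1* and *4922501L14Rik* 2 each, *Slc10a2* 4 and *AA388235* 8, where the median window held 6. The window of *4922501L14Rik* belongs to a start site 47.4 kb inside the annotated gene, so it does not describe the first start of that gene.

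The secreted protein gene *Prap1* (gene ID 22264) had an authors' mean count of 794 in control uteri and 7.33 in *Foxo1d/d* uteri. Scaled to a total of 1000000 counts (CPM), its level was 30.4 in control (29.2 to 31.6) and 0.269 in *Foxo1d/d* (0.169 to 0.407). The *Foxo1d/d* level was 0.886% of control (0.554% to 1.34%), or 113-fold lower, a log2 ratio of -6.82. It thus had 22 counts left over the 3 *Foxo1d/d* libraries, against 2381 over the 3 controls.

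The bile acid transporter gene *Slc10a2* (gene ID 20494) had an authors' mean count of 26.7 in control uteri and 0 in *Foxo1d/d* uteri. It had 80 counts over the control libraries and none over the *Foxo1d/d* libraries, where 3 counts over the group would be 0.0367 CPM. At that floor of 3 counts, 3.59% of control, it would be 27.8-fold lower, from a control level of 1.02 CPM (0.809 to 1.27). The counting interval of its ratio ended higher than that floor, at 4.52% of control. Among the genes under 0.25 of control that averaged at least 10 counts over both genotypes, it was the 1 gene without a count in *Foxo1d/d*.

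The acrosomal protein gene *Spaca7* (gene ID 78634) had an authors' mean count of 43.3 in control uteri and 2.00 in *Foxo1d/d* uteri. Its level was 1.66 CPM (1.39 to 1.97) in control and 0.0734 CPM (0.0269 to 0.160) in *Foxo1d/d*. The *Foxo1d/d* level was 4.42% of control with a wide counting interval, 1.59% to 9.89%, since it rested on 6 counts over the group.

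The cilia-linked gene *4922501L14Rik* had an authors' mean count of 60.3 in control uteri and 11.7 in *Foxo1d/d* uteri. Its level was 2.31 CPM (1.99 to 2.67) in control and 0.428 CPM (0.298 to 0.595) in *Foxo1d/d*, 18.5% of control (12.5% to 26.7%). Of the 5 genes it had the highest ratio, and its counting interval reached past 0.25 of control.

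The non-coding RNA *AA388235* (gene ID 433100) had an authors' mean count of 138 in control uteri and 19.3 in *Foxo1d/d* uteri. Its level was 5.30 CPM (4.80 to 5.83) in control and 0.709 CPM (0.539 to 0.917) in *Foxo1d/d*, 13.4% of control (9.996% to 17.7%), or 7.47-fold lower. It had 58 counts left over the 3 *Foxo1d/d* libraries, and *4922501L14Rik* had 35.

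**Figure D1:**
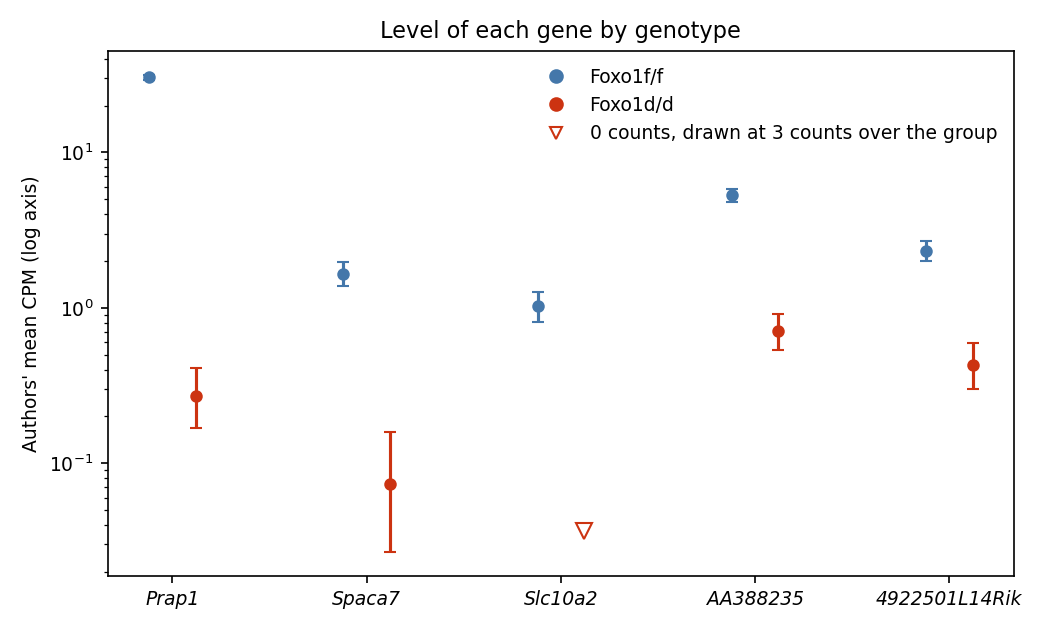
CPM (log axis), computed from the authors' mean counts, of the 5 genes in *Foxo1f/f* (blue) and *Foxo1d/d* (red) uteri. The 95% counting intervals are shown, with an open triangle at 3 counts over the group where none was counted. Among the 4 genes with counts in both genotypes, the gap is widest for *Prap1*, from 30.4 to 0.269, and narrowest for *4922501L14Rik*, from 2.31 to 0.428.

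The counting intervals belong to the ratio that chose the genes and leave out the difference between pools, so no order among the 5 is read from them. Those of *Prap1* and *Spaca7* did not overlap, and *Slc10a2*, without a count in *Foxo1d/d*, could not be placed against either. The interval of *Spaca7* ended at 9.89%, just under that of *AA388235*, which began at 9.996%. The intervals of *AA388235* and *4922501L14Rik* overlapped. The log2 ratios were -4.50 for *Spaca7*, -2.90 for *AA388235* and -2.43 for *4922501L14Rik*, and -4.80 for *Slc10a2* at the floor of 3 counts.

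Among the 15696 genes averaging at least 10 counts over both genotypes, 64 genes or 0.408% lay under 0.25 of control, the 5 genes included. Since the rule used this contrast, nothing is read from that share. All 5 passed the filter on low counts. For *Prap1*, *Spaca7* and *Slc10a2* the *Foxo1d/d* mean was under 10, so they passed through the control column, and a gene that passes so must differ. The 64 genes summed to 2689 CPM in control and 339 CPM in *Foxo1d/d*. The 5 genes made up 1.67% of that difference, and *Prap1* alone 1.28%. Their own sum was 40.7 CPM in control and 1.48 CPM in *Foxo1d/d*.

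The genes just inside the threshold were *Lipf*, a gastric lipase, at 24.8% of control, *Gjb6*, a connexin, at 24.6%, and *Tac2*, a tachykinin precursor, at 24.4%. Just outside it were *Fgf9*, a growth factor, at 25.2%, *Fam189a1* at 26.2%, and *Kcnc2*, a voltage-gated potassium channel subunit, at 26.6%. The counting intervals of all of them spanned 0.25, from 15.9% to 37.6% for *Lipf* and from 21.7% to 29.1% for *Fgf9*.

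**Figure D2:**
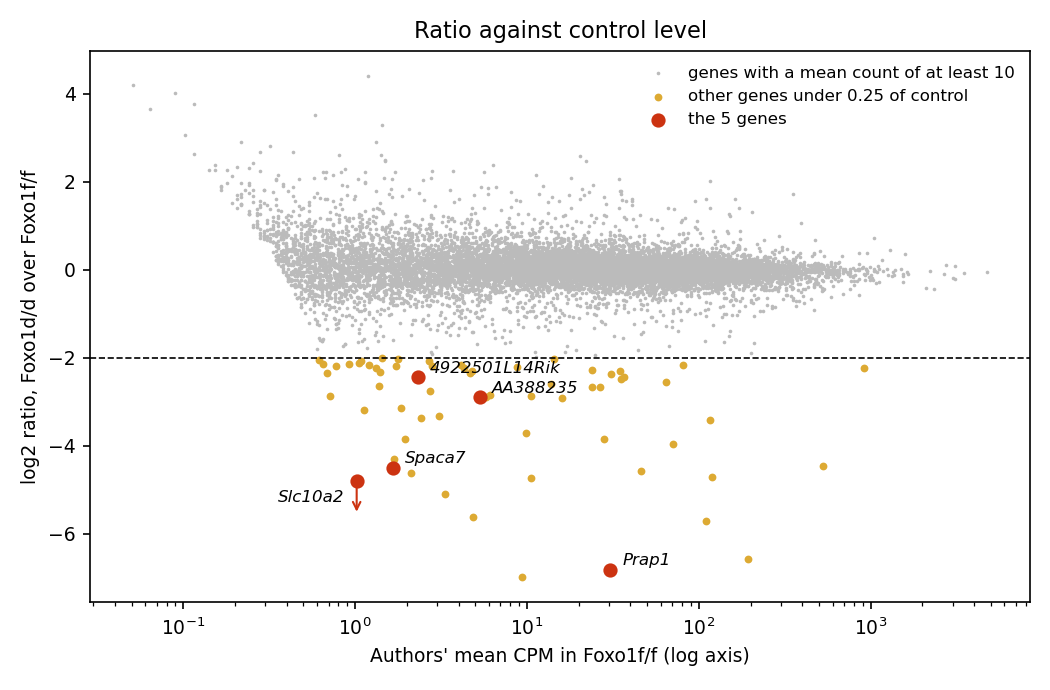
Log2 of the ratio between *Foxo1d/d* and *Foxo1f/f* uteri (negative where lower in *Foxo1d/d*) for genes averaging at least 10 counts. It is set against CPM in *Foxo1f/f* (log axis), computed from the authors' mean counts. The 5 genes are in red, the other 59 genes under 0.25 of control in yellow and the dashed line is at 0.25. *Prap1* lies at -6.82 from a control level of 30.4. *Slc10a2*, marked by an arrow, lies at -4.80 at the floor of 3 counts, from a control level of 1.02. The counting interval of its ratio ended at -4.47.

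Levels between genes were compared per kilobase of exon, with lengths from GENCODE vM21. No length was matched to *AA388235*, which was left out. In control uteri *Prap1*, a transcript of 0.62 kb, stood at 49.0 CPM per kb (47.1 to 51.0), in position 847 of the 19340 genes with a length and a count. *Spaca7* stood at 1.69 CPM per kb (1.42 to 2.01), *4922501L14Rik* at 0.258 (0.221 to 0.298) and *Slc10a2* at 0.246 (0.195 to 0.306), where the median gene stood at 4.40. Thus *Prap1* was abundant for its length, the other 3 lay below the median gene, and the intervals of *4922501L14Rik* and *Slc10a2* overlapped. In *Foxo1d/d* uteri *Prap1* stood at 0.434 CPM per kb (0.272 to 0.657), *Spaca7* at 0.0749 (0.0275 to 0.163) and *4922501L14Rik* at 0.0478 (0.0333 to 0.0664), and 3 counts of *Slc10a2* would be 0.00884. *Prap1* was still the highest of these per kb, and *Spaca7* and *4922501L14Rik* overlapped.

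In the RefSeq annotation on GRCm38.p6 the 5 genes lie at 5 places on 4 chromosomes. *Prap1* spans chr7:140093396-140097203 (+ strand), *Slc10a2* chr8:5083219-5105287 (- strand), *Spaca7* chr8:12573036-12600739 (+ strand), *AA388235* chr17:33981492-33985358 (+ strand) and *4922501L14Rik* chr3:154663731-154767790 (+ strand). *Slc10a2* and *Spaca7* share chromosome 8 but are 7.47 Mb and 75 annotated genes apart. An overlapping gene was annotated for *4922501L14Rik* alone, the antisense non-coding *Gm20389*, which has no row of its own among the counts. The library kit did not mark strand, so reads from these 2 could not be told apart.

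Of the 10 genes that flank the 5 most closely and averaged at least 10 counts, 2 were over 1.5-fold lower in *Foxo1d/d* and none over 1.5-fold higher, at a median log2 ratio of -0.04. Over all 15696 genes, 3.63% were over 1.5-fold lower and 5.57% over 1.5-fold higher, with a median of 0.02. One of the 2 was *Fuom*, which encodes fucose mutarotase and ends 0.608 kb beyond *Prap1* on the other strand, with mean counts of 648 and 373 and a ratio of 0.552 (0.513 to 0.595). On the other side of *Prap1* the nearest counted gene was the zinc finger gene *Zfp511*, 52.8 kb away, with a ratio of 0.9005 (0.844 to 0.961). *Paox*, polyamine oxidase, the third counted gene beyond *Prap1*, was named after its values were seen and had a ratio of 0.423 (0.392 to 0.456), while *Echs1*, between *Fuom* and *Paox*, had 0.971 (0.940 to 1.00). The reduction of *Prap1* thus stood beside smaller reductions of 2 of the 3 genes on its right and none past 1.5-fold on its left. Of the 30 genes that are the 3 nearest on either side of the 5, 3 were over 1.5-fold lower and 1 higher. Their median log2 ratio was -0.02.

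The other reduced neighbour was *Sox1ot* (counted as *Gm5607*), a long non-coding RNA 136 kb from *Spaca7*, with mean counts of 18.0 and 3.67 and a ratio of 0.195 (0.0921 to 0.378). It passed the filter on low counts through the control column, so it too had to differ. *Tubgcp3*, a subunit of the gamma-tubulin complex 13.5 kb to the right of *Spaca7*, had a ratio of 0.982 (0.949 to 1.02). *Slc10a2* lies in a long stretch without counted genes, with *Shcbp1* 304 kb away at a ratio of 1.26 (1.14 to 1.40) and the ephrin gene *Efnb2* 3512 kb away at 1.48 (1.43 to 1.54). *AA388235* lies between genes of the major histocompatibility complex, *H2-K2* at a distance of 2.70 kb with a ratio of 0.960 (0.861 to 1.07) and *H2-K1* at 10.7 kb with 1.29 (1.27 to 1.31). *H2-K1* and *H2-K2* share sequence with their class I relatives, and their counts depend on how shared reads were assigned. *4922501L14Rik* lies between *Cryz*, a quinone reductase, at 1.22 (1.16 to 1.28) and *Fpgt*, a sugar nucleotide enzyme, at 0.897 (0.843 to 0.954). The reductions of *Slc10a2*, *AA388235* and *4922501L14Rik* were therefore not shared by the nearest counted gene on either side.

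**Figure D3:**
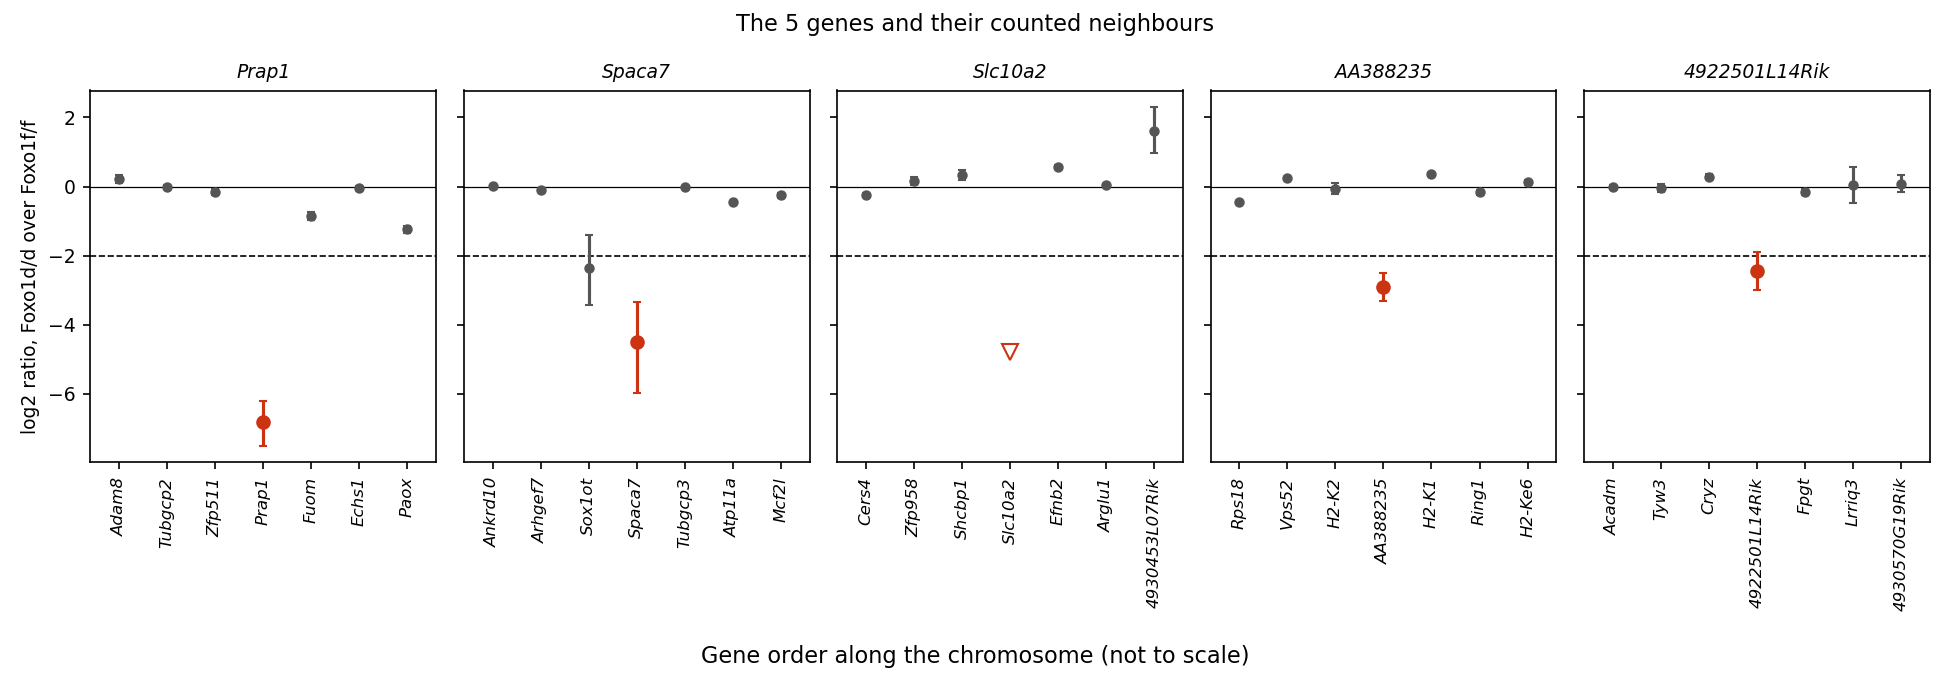
Log2 of the ratio between *Foxo1d/d* and *Foxo1f/f* uteri (negative where lower in *Foxo1d/d*) of each of the 5 genes (red). The 3 nearest genes on either side averaging at least 10 counts are in grey, in gene order and not to scale. The 95% counting intervals are shown, with an open triangle for *Slc10a2* at its floor and a dashed line at 0.25. *Fuom* and *Paox* beside *Prap1* and *Sox1ot* beside *Spaca7* are the neighbours over 1.5-fold lower, and *4930453L07Rik* beyond *Slc10a2*, whose control mean is under 10, is the 1 neighbour over 1.5-fold higher.

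The genes most like each of the 5 were found by the distance between their levels, log2(CPM + 0.1), over the 2 genotype means. The nearest to *Prap1* was *Mmp7*, the matrix protease matrilysin, at a distance of 1.58, with mean counts of 274 and 10.7. It was followed by the serine protease gene *Prss35* at 2.01, with mean counts of 245 and 2.00, and by the cation ATPase gene *Atp13a4* at 2.02, with 258 and 20.7. These distances were larger than for the other 4 genes, each of which had another gene within 1.03. *Spaca7* was nearest to *Pinlyp*, a phospholipase inhibitor of the LY6 family, at a distance of 0.101, with mean counts of 44.0 and 2.33. The dicarboxylate transporter gene *Slc13a2*, at 0.349, and the tubulin glutamylase gene *Ttll6*, at 0.489, came next. *Slc10a2* was nearest to *Spaca7* itself, at 1.03, then to the calcium channel gene *Trpv5* at 1.09 and *Pinlyp* at 1.12. As *Slc10a2* had no count in *Foxo1d/d*, its level there was the offset of 0.1 alone. Its distances and their close order depend on that offset. For *AA388235* they were *Adarb2*, an RNA-binding relative of the adenosine deaminases, at 0.160, *Il20ra*, a cytokine receptor subunit, at 0.301, and *Gm10664* at 0.380. For *4922501L14Rik* they were *Calb2*, the calcium-binding protein calretinin, at 0.249, *Gjb6* at 0.355 and *Gm5089* at 0.427. With only 2 genotype means behind each distance, likeness here means a similar level in both and no more.

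Of the 7 genes of solute carrier family 10, 5 averaged at least 10 counts. Without *Slc10a2*, which the rule chose, 0 of the other 4 were over 1.5-fold lower or higher, at a median log2 ratio of -0.07, beside 3.63% lower and 5.57% higher among all genes with such counts, so little can be read from 4 genes. *Slc10a1*, the liver bile acid carrier, had mean counts of 25.7 and 23.7, a ratio of 0.884 (0.631 to 1.24), from a control count close to that of *Slc10a2*. The steroid sulfate carrier gene *Slc10a6* had 713 and 521, a ratio of 0.700 (0.656 to 0.748). *Slc10a3* had 551 and 767, a ratio of 1.33 (1.25 to 1.42), and *Slc10a7*, the most abundant by counts, 752 and 806, a ratio of 1.03 (0.969 to 1.09). *Slc10a4*, with 5.33 and 1.67, had a ratio of 0.2995 (0.0858 to 0.856), too few counts to place it against 0.25, and *Slc10a5*, with 3 and 4, one of 1.28 (0.494 to 3.43). The summed level of the family was 79.5 CPM in control and 77.9 CPM in *Foxo1d/d*.

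Other genes of bile acid handling were mostly scarce. Of 13, 6 averaged at least 10 counts, none was over 1.5-fold lower or higher, beside 3.63% and 5.57% of all genes, and the median log2 ratio was -0.26. Nothing is read from a count of 0 among 6. Of these 6 genes, the export pump gene *Abcc4* had the lowest ratio, 0.728 (0.703 to 0.754), and the bile acid receptor gene *Nr1h4* the highest, 1.17 (0.817 to 1.68). *Cyp27a1*, a sterol hydroxylase and the most abundant by counts, had mean counts of 5496 and 4886. *Fabp6* and *Fgf15*, which mark bile acid uptake in the ileum, and *Cyp7a1*, the rate-limiting enzyme of bile acid synthesis in the liver, were at or under 3 counts over the group in both genotypes. The others below the filter went both ways. *Slc51a* had mean counts of 2.33 and 6.67, a ratio of 2.74 (1.11 to 7.66), and *Slc51b* 2.67 and 4.67, 1.68 (0.657 to 4.61). *Nr0b2* had 5.67 and 5, a ratio of 0.846 (0.393 to 1.80), and *Abcb11* 7.67 and 4.33, 0.542 (0.252 to 1.12). The list summed to 354 CPM in control and 289 CPM in *Foxo1d/d*.

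Genes of the acrosome were counted in these uteri beside *Spaca7*. Of 16, 9 averaged at least 10 counts. Without *Spaca7*, which the rule chose, 0 of the other 8 were over 1.5-fold lower and 2 over 1.5-fold higher, and their median log2 ratio was -0.16, beside 3.63% lower and 5.57% higher among all genes with such counts. The 2 higher genes were *Zpbp2*, with mean counts of 10.3 and 19.3 and a ratio of 1.79 (1.14 to 2.87), and *Spaca9* (counted as *1700026L06Rik*), with 10.3 and 16.3 and 1.51 (0.947 to 2.46), which falls under 1.5-fold when ratios are centred on the median gene. The proacrosin gene *Acr*, with a control count close to that of *Spaca7*, had 46.0 and 41.0, a ratio of 0.854 (0.664 to 1.10). *Acrbp*, which binds proacrosin, had 742 and 616, a ratio of 0.796 (0.748 to 0.847), *Zpbp* 61 and 50, 0.786 (0.629 to 0.980), *Eqtn* 15.3 and 11, 0.688 (0.426 to 1.10), and *Izumo1*, the sperm protein of gamete fusion, 20.0 and 19.7, 0.942 (0.647 to 1.37). *Spaca6* (counted as *Ncrna00085*), the most abundant by counts, had 822 and 841. Below the filter, *Spaca1* had mean counts of 4.67 and 5.67, a ratio of 1.16 (0.540 to 2.55). *Spaca4* had 1.67 and 7.33, a ratio of 4.22 (1.56 to 14.3), and *Spaca5* 4.33 and 2.67, 0.590 (0.212 to 1.54). *Spaca3*, *Acrv1*, *Spam1* and *Zp3r* were at or under 3 counts over the group in both genotypes. The list summed to 68.2 CPM in control and 59.9 CPM in *Foxo1d/d*.

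Markers of spermatids and sperm were near 0, as far as these libraries can show. None of the 9 averaged at least 10 counts, *Tnp1*, *Odf1*, *Smcp*, *Akap4*, *Ldhc* and *Pgk2* were at or under 3 counts over the group in both genotypes, and the list summed to 0.447 CPM in control and 0.526 CPM in *Foxo1d/d*. *Prm1*, a protamine and the most abundant of them, had mean counts of 6 and 9, against 43.3 and 2.00 for *Spaca7*.

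In the gut, the PRAP1 protein acts beside the machinery of lipoprotein assembly. Of its 8 genes, 5 averaged at least 10 counts, none was over 1.5-fold lower and 1 over 1.5-fold higher, beside 3.63% and 5.57% of all genes, at a median log2 ratio of 0.04. The higher gene was *Dgat2*, which makes triglycerides and was the most abundant by counts, with 1496 and 3409 and a ratio of 2.18 (2.11 to 2.26). Among the 5 genes with such counts, *Mttp*, the triglyceride transfer protein, was lowest by ratio at 0.818 (0.739 to 0.906). *Apoa1* and *Apoa4* were at or under 3 counts over the group in both genotypes, and the list summed to 138 CPM and 208 CPM.

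Epithelial genes tied to progesterone or receptivity went both ways. All 11 averaged at least 10 counts, 4 were over 1.5-fold lower and 4 over 1.5-fold higher, beside 3.63% and 5.57% of all genes, and the median log2 ratio was 0.37. *Cyp26a1*, which degrades retinoic acid, was lowest with mean counts of 5237 and 1468, a ratio of 0.269 (0.260 to 0.278), close above the threshold that chose the 5 genes. *Calb1*, a calcium-binding protein, was highest with 898 and 3948, a ratio of 4.21 (4.04 to 4.39). The other lower genes were *Calca* at 0.417, *Irg1* at 0.543 and *Fst* at 0.591. The other higher ones were *Hdc* at 2.42, *Areg* at 1.65 and *Ihh* at 1.52, which falls under 1.5-fold when ratios are centred on the median gene. *Hsd11b2*, a glucocorticoid-inactivating enzyme and the most abundant by counts, had 8517 and 12257. The list summed to 1174 CPM in control and 1413 CPM in *Foxo1d/d*.

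In bulk tissue, fewer cells of a type and less RNA per cell cannot be told apart, so markers of the cell types were set beside the 5 genes. Of all genes averaging at least 10 counts, 3.63% were over 1.5-fold lower and 5.57% higher, so that in lists this short a count of 0 says little. Of 12 markers of epithelium in general, none was over 1.5-fold lower and 2 over 1.5-fold higher, at a median log2 ratio of 0.35 and a sum of 899 CPM in control and 1107 CPM in *Foxo1d/d*. *Krt19* was highest at a ratio of 2.33 (2.22 to 2.45), *Elf3* next at 1.81 (1.71 to 1.92), *Krt18* lowest at 0.980 (0.955 to 1.01), and *Cdh1*, E-cadherin, the most abundant by counts, had 1.08 (1.05 to 1.10). Of the 5 markers of luminal epithelium reported here, 4 were over 1.5-fold higher, with a median of 1.56 and sums of 119 CPM and 325 CPM. Another gene of this list is left out of these values. *Muc1*, a surface mucin, was lowest at 1.22 (1.15 to 1.29), and *Calb1* was the highest and most abundant by counts, ahead of *Ltf* at 3.23, *Lpar3* at 2.96 and *Wnt7a* at 1.58.

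Gland markers were split. Of 7, 6 averaged at least 10 counts, 3 over 1.5-fold lower and 2 over 1.5-fold higher, beside 3.63% and 5.57% of all genes, at a median log2 ratio of -2.21 and sums of 894 CPM in control and 130 CPM in *Foxo1d/d*. The 3 lower ones were the secreted products *Prss28*, at 1.05% of control (0.891% to 1.22%), *Spink3*, at 3.83% (3.44% to 4.25%), and *Prss29*, the most abundant by counts, at 4.55% (4.34% to 4.76%), in the same range as *Prap1* and *Spaca7*. *Foxa2*, the transcription factor that marks gland cells, had mean counts of 280 and 300, a ratio of 1.03 (0.934 to 1.13). Among the 6, *Lif*, the implantation cytokine made by glands, was highest at 1.99 (1.90 to 2.09), followed by the chemokine gene *Cxcl15* (counted as *Il8*) at 1.94 (1.80 to 2.10). The gene below the filter, *Wif1*, had mean counts of 0.33 and 1.33. The part of gland cell content in the loss of the 5 genes was not tested.

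No marker of stroma, smooth muscle or endothelium passed 1.5-fold, as was so for most genes, with 3.63% of all lower and 5.57% higher. All 9 of stroma had a median log2 ratio of -0.11 and sums of 11701 CPM and 11341 CPM, from *Pdgfra* at 0.836 to *Col1a1* at 1.08, with *Col3a1* the most abundant by counts at 0.968. All 7 of smooth muscle had a median of -0.27 and sums of 7088 CPM and 5727 CPM, from *Myh11*, the most abundant by counts, at 0.742 to *Acta2* at 0.902. All 5 of endothelium had a median of -0.22 and sums of 1127 CPM and 969 CPM, from *Emcn* at 0.849 to *Tek* at 0.878, with *Pecam1* the most abundant by counts at 0.856. The 7 defining genes of the uterus were all counted, with a median of -0.04 and sums of 1503 CPM and 1488 CPM. Among these *Wnt7a* was highest at 1.58 and 1 of 7 over 1.5-fold higher, *Emx2* lowest at 0.882, and *Hoxa10* most abundant by counts at 0.926.

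Fat and red cell markers averaging at least 10 counts were over 1.5-fold higher in *Foxo1d/d*, and leukocyte markers mostly less so. Of 7 leukocyte markers, 6 averaged at least 10 counts, 1 over 1.5-fold higher and none lower, beside 5.57% and 3.63% of all genes, with a median log2 ratio of 0.39 and sums of 278 CPM and 346 CPM, from *Csf1r* at 1.12 to *Cd3e* at 2.14, with *Ptprc* the most abundant by counts at 1.32. All 6 fat cell markers were over 1.5-fold higher, with a median of 2.00 and sums of 11.04 CPM and 40.5 CPM, from *Fabp4*, the most abundant by counts, at 3.28 to *Cidec* at 4.69. One of them, *Lep*, had a control mean of 7.67 and passed the filter through the *Foxo1d/d* column, so it had to differ. Of 5 red cell genes, 4 were matched, 2 averaged at least 10 counts and both were higher, the beta globin row *Beta-s* at 2.23, the most abundant, and *Alas2* at 2.63, with a median of 1.28 and sums of 47.2 CPM and 108 CPM. *Hba-a1* and *Hba-a2*, which are near-identical copies, were listed at 0. A part of fat or blood content in the ratios of the 5 genes was not tested.

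Markers of tissues in which relatives of the 5 genes are better known were also examined. Of 5 genes of oviduct and ciliated cells, relevant to *4922501L14Rik*, none was over 1.5-fold lower and 1 over 1.5-fold higher, beside 3.63% and 5.57% of all genes, at a median log2 ratio of 0.17 and sums of 131 CPM and 143 CPM. *Foxj1*, the regulator of motile cilia, was highest with mean counts of 12.7 and 25.3, a ratio of 1.92 (1.28 to 2.91), *Ccdc39*, a factor of ciliary dynein assembly, lowest at 0.817 (0.747 to 0.892), and *Ovgp1*, oviductin, most abundant by counts at 1.13. Of 7 ovary markers, 3 averaged at least 10 counts and none passed 1.5-fold, with a median of -0.19 and sums of 33.7 CPM and 31.8 CPM. Among these 3, *Star*, the most abundant by counts over both genotypes, was highest at 1.02 and *Amh* lowest at 0.778. *Fshr* and *Cyp19a1* were at or under 3 counts over the group in both genotypes. Of 7 markers of small intestine, relevant to *Slc10a2* and *Prap1*, 2 averaged at least 10 counts and none passed 1.5-fold, with a median of 0.17 and sums of 3.47 CPM and 3.85 CPM. These were *Lct* at 1.17, with mean counts of 31.3 and 38.3, and *Vil1*, the most abundant by counts, at 1.08, with 56.7 and 63.7. *Sis*, *Apoa4*, *Cdx2* and *Fabp6* were at or under 3 counts over the group in both genotypes.

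**Figure D4:**
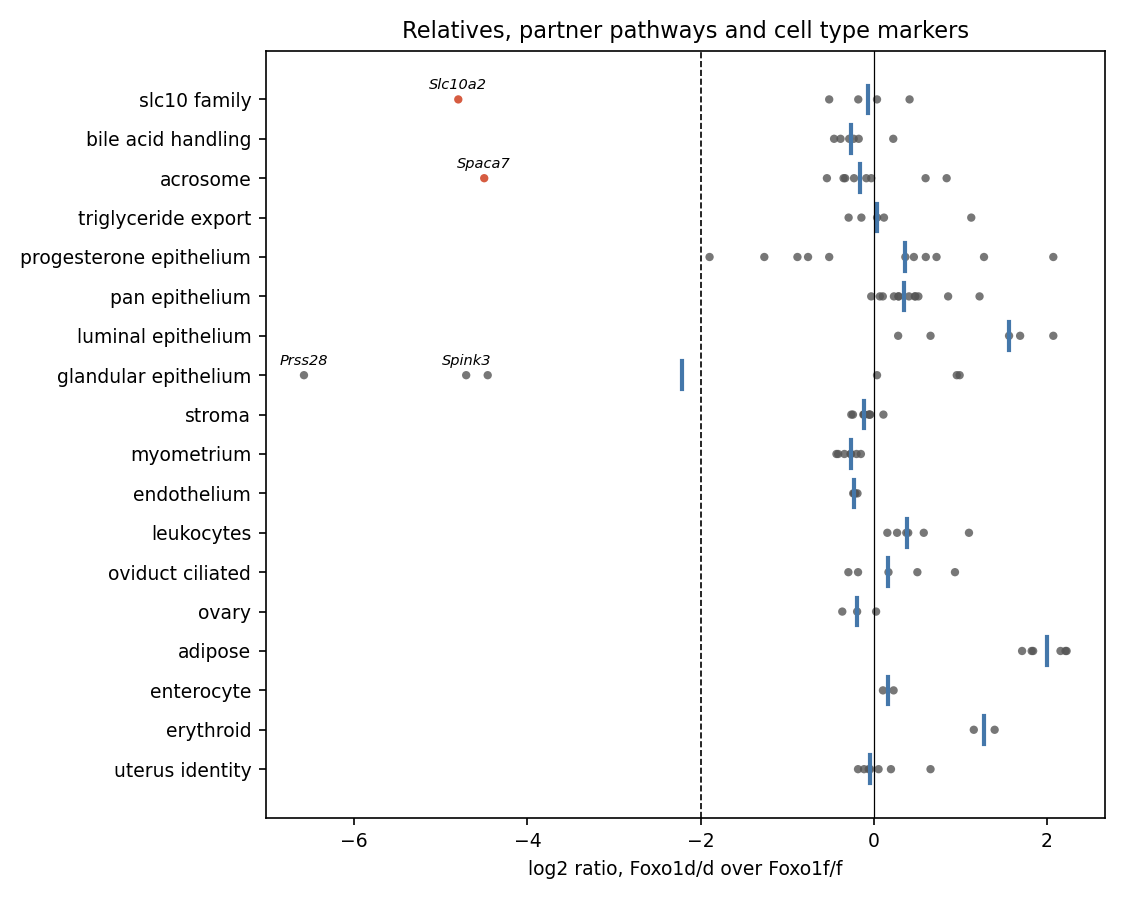
Log2 of the ratio between *Foxo1d/d* and *Foxo1f/f* uteri (negative where lower in *Foxo1d/d*) for each gene averaging at least 10 counts. Points are given by list of relatives, partner pathways and cell type markers, with *Slc10a2* and *Spaca7* in red and *Slc10a2* at its floor. The median of each list without the 5 genes is a blue bar, and a dashed line is at 0.25. *Slc10a2* at -4.80 and *Spaca7* at -4.50, both chosen by this ratio, lie below the other genes of their lists, and 3 secreted gland products, *Prss28*, *Spink3* and *Prss29*, lie at -6.58, -4.71 and -4.46.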

How the data were processed

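The counts were made by the authors, who trimmed paired-end reads of TruSeq libraries at the 5′ ends, mapped them with STAR to RefSeq genes, removed duplicates with Picard and counted reads per gene with HTSeq. The methods name mm10 and the submitters' processing notes mm9, and versions are not given in the sources used here. The deposited table holds the authors' mean raw counts per genotype, which were whole numbers after multiplication by 3 (tolerance 0.02). Its edgeR columns of fold change, average log2 CPM, p-value and FDR were not used. The number of unused columns of single samples was 0.

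Ratios were computed as the mean count divided by the total of its genotype, without a pseudocount, with exact Clopper-Pearson intervals at 95% from summed counts, and exact Poisson intervals for CPM. A count of 0 was set against a floor of 3 counts over the group. Lists were described by genes over 1.5-fold among those with a mean count of at least 10. The highest and lowest ratios of a list were taken among the same genes. The most abundant gene was that with the most counts over both genotypes. Symbols were matched to RefSeq (GRCm38.p6) by name, gene ID or synonym. Named genes were the 5 genes, *Foxo1*, 3 genes on either side of 0.25, the 3 most like each gene, the nearest counted gene on either side, and of each list the most abundant, highest and lowest, with every gene of the solute carrier 10 and acrosome lists. Other list genes and neighbours given by name, such as those past 1.5-fold or near 0, were named after their values were seen. Members and lists were chosen with earlier results of these data known. The 19 lists were the solute carrier 10 family, bile acid handling, acrosome, sperm, triglyceride export, progesterone epithelium, general, luminal and glandular epithelium, stroma, myometrium, endothelium, leukocytes, oviduct and cilia, ovary, fat, enterocyte, red cells and uterus. The result for 1 gene of the luminal list is not reported here, and the counts, median and sums of that list leave it out. Alternatives changed the scaling, pseudocount, filter and threshold. The ratio, its counting interval and the centring were tested on data simulated with counting error only, and the other steps were not. Python 3.11.15, numpy 2.4.6, pandas 2.3.3, scipy 1.17.1 and matplotlib 3.10.9 were used.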

Additional observations from a re-analysis of the deposited data

How the results depend on the processing

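The log2 ratios of the 5 genes were recomputed under 6 alternatives each, and 27 of the 30 values lay within the counting interval, or for *Slc10a2* at or under its floor. With a pseudocount of 5 on both mean counts the log2 ratio moved to -6.08 for *Prap1*, -2.85 for *Spaca7* and -2.72 for *Slc10a2*, since the pseudocount is near or above their *Foxo1d/d* counts. Scaling by the sum of the epithelial markers shifted every log2 ratio down by 0.30, and centring on the median gene or a trimmed mean by 0.02 and 0.03. The 64 genes under 0.25 of control became 600 without a filter on low counts, 35 with a mean count of at least 50, and 41 under 0.2 of control. List entries over 1.5-fold, summed over lists, numbered 9 lower, *Slc10a2* and *Spaca7* included, and 26 higher. Genes shared by lists, such as *Calb1* and *Wnt7a*, count in each. These sums moved by less than 1.5 times. Of 114 recomputed counts of single lists, 6 moved by more. A mean count of at least 50 leaves out *Slc10a2*, *Spaca7* and *4922501L14Rik*. No paired analysis was possible because the authors' means per genotype carry no replicate numbers, and for the same reason neither leaving out each library nor the replicate block was run. Depth limits *Spaca7* and *Slc10a2* most, with 6 and 0 counts left.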
